A study of Rattus norvegicus with 4 samples.

Results

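Glutamate receptors of the metabotropic family and the vesicular glutamate transporters were described here in the rat spinal dorsal horn, the part of the cord that receives sensory input. The genes were 6 receptors (Grm2, Grm3, Grm4, Grm5, Grm7 and Grm8) and 3 transporters (Slc17a6, Slc17a7 and Slc17a8), chosen by name through the accession of their array probes. They were read by 11 of 30367 probes, and all 9 were among the 22821 genes tested. Male rats aged 6 weeks had received oxaliplatin, a platinum chemotherapy drug that causes painful neuropathy, or its vehicle, and tissue was taken on day 10. Each group had 2 Agilent 2-colour arrays, called biological replicates in the labels, and on every array the labels put RNA of the treated rats in the red channel (Cy5) and RNA of untreated rats in the green channel (Cy3). Strain, dose and the number of rats behind an array are not given in the sources used here, so the p-values measure only the spread between these arrays. That spread was estimated from each gene together with all genes tested.

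Metabotropic glutamate receptors are G-protein-coupled receptors that tune synapses instead of opening as channels. Group I receptors such as Grm5 act through Gq and phospholipase C, mostly on the receiving side of the synapse, while group II (Grm2, Grm3) and group III (Grm4, Grm7, Grm8) receptors act through Gi/o, lower cyclic AMP and often restrain transmitter release. Vesicular glutamate transporters load glutamate into synaptic vesicles: Slc17a6 (VGLUT2) in most excitatory neurons of the cord and in many sensory neurons, Slc17a7 (VGLUT1) in cortical and hippocampal neurons and in large sensory neurons of the dorsal root ganglia, and Slc17a8 (VGLUT3) in small sets of neurons.

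Markers of the cord were measured in both channels, but the Cy5 channel also carried markers of other tissues at higher levels on all 4 arrays. Of all genes, 29.3% were called higher in Cy5 than in Cy3 and 26.3% lower (limma). All 11 dorsal root ganglion and Schwann cell markers were called higher in Cy5. The median log2 Cy5/Cy3 ratio of that list was 3.48 to 3.62 on the oxaliplatin arrays and 3.72 to 4.07 on the vehicle arrays. Their summed normalised signal in Cy5 was 198002 to 212700 on the oxaliplatin arrays and 225128 to 229764 on the vehicle arrays, and in Cy3 13892 to 15799 and 12484 to 17220 in the same order of groups. Of 15 measured forebrain neuron markers, 12 were called higher in Cy5 and 2 lower, with list medians of 2.07 to 2.15 on the oxaliplatin arrays and 1.91 to 2.01 on the vehicle arrays. The 5 measured Hox genes, which mark position along the cord, had ratios below 0, 4 of them called lower in Cy5. The forebrain markers summed to 101433 to 102732 in Cy5 on the oxaliplatin arrays and 103404 to 108081 on the vehicle arrays, and to 20057 to 23586 and 25646 to 28233 in Cy3. In Cy5, 10 of the 11 ganglion markers and all 15 forebrain markers were well above background on all 4 arrays, and the part of these tissues in the ratios below was not tested. The labels name the dorsal horn for both channels, and the extract protocol mentions Cy3 labelling only, so which channel held the treated rats' RNA is not settled. Every value below is therefore given as it was measured, by channel, and group differences are oxaliplatin minus vehicle. If Cy3 held the treated RNA, a higher ratio would mean a lower level after the drug relative to Cy5. No dyes were swapped, so the dye and the RNA in it cannot be told apart. In tissue RNA, fewer cells of a type and less RNA per cell cannot be told apart either.

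Probes well above background made up 82.6% to 85.4% of the array in Cy5 and 76.8% to 88.1% in Cy3. Oxaliplatin replicate 2 had the lowest Cy3 signal (a median of 283.5, against 494 to 564 on the other 3 arrays). Signals are given as log2 of the normalised intensity, on a scale where 1 unit is a 2-fold step, and log2 Cy5/Cy3 ratios are loess-normalised within each array. Signals of different genes come from different probes and are not compared.

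Slc17a7 and Slc17a6 differed between the channels in opposite directions. Slc17a7 was higher in Cy5 than in Cy3 (limma adjusted p = 1.23e-05 over the 4 arrays). On the oxaliplatin arrays its mean signals differed 3.64-fold, no exact value because its Cy3 signal was not well above background there. Its log2 ratio was 1.94 and 1.96 on the vehicle arrays. Slc17a6 was 1.76-fold lower in Cy5, with a mean log2 ratio of -0.82 ± 0.057 (SE, n = 4 arrays, limma adjusted p = 6.18e-05). Slc17a8, whose signal was close to background, did not pass the test (0.15 ± 0.056, adjusted p = 0.0633). A mean ratio at least as low as that of Slc17a6 was found in 2.29% of all genes. Among all 9 genes, 6 were called in this comparison, 4 higher and 2 lower in Cy5, against 55.6% of all genes (29.3% higher and 26.3% lower). Slc17a7 and Grm2 had a mean ratio of at least 1, a 2-fold difference, against 3.58% of all genes.

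Promoter sequences are shown for these 2 transporters because their ratios ran in opposite directions. They are RefSeq sequences of build GRCr8, from 250 bases before to 50 bases after the gene start, on the plus strand, 5′ to 3′, with the letters GGGCGG, or CCGCCC on the other strand, in capitals. This is the core of the GC box, a common promoter element. The Slc17a7 window lies at chr1:104785955-104786254 and the Slc17a6 window at chr1:110348197-110348496.
Slc17a7: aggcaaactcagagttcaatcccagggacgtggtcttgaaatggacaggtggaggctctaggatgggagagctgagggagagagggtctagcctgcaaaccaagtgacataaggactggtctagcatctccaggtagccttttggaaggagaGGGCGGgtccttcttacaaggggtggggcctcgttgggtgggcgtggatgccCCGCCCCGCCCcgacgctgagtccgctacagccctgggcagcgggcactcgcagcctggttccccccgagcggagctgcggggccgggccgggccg
Slc17a6: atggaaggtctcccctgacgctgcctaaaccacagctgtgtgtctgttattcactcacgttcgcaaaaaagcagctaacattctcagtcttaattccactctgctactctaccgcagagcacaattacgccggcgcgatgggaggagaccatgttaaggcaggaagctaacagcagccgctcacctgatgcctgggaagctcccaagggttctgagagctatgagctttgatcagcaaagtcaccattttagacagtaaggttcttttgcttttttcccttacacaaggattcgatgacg
The Slc17a7 window held 3 matches to the GC box letters, 2 of them overlapping by 1 base, and the Slc17a6 window held 0. Of 33465 RefSeq promoter windows of this length, 33.1% held at least 1 match. CpG pairs numbered 17 in the Slc17a7 window and 11 in the Slc17a6 window, against a median of 7 over all windows. Neither window held the TATA box letters TATAAA or the letters CCAAT on either strand, which 14.2% and 37.5% of all windows held. A match describes the letters of the window and is no evidence of binding. Windows were matched for 6 of the 9 genes, and among the receptors Grm7 had 2 matches to the GC box letters while Grm5 and Grm8 had 0.

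Slc17a6 was measured by 1 probe printed 10 times on each array. Its log2 Cy5 signal was 13.63 and 13.71 on the oxaliplatin arrays, given here and below as replicate 1 then 2, and 13.79 and 13.75 on the vehicle arrays. Its log2 Cy3 signal was 14.50 and 14.53 against 14.63 and 14.49. The ratios were -0.86 and -0.80 on the oxaliplatin arrays and -0.85 and -0.76 on the vehicle arrays. Normalised Cy3 was the brighter channel on all 4 arrays. The groups overlapped in the ratio and in Cy3, while in Cy5 both oxaliplatin values lay below both vehicle values. Ratios of its 10 spots ran from -0.93 to -0.81 on oxaliplatin replicate 1 and from -0.87 to -0.75 on oxaliplatin replicate 2. On the vehicle arrays, where 1 outlier spot each was left out, the other 9 spots ran from -0.94 to -0.76 and from -0.82 to -0.68. Every spot used was thus below 0 on every array. Median centring instead of loess gave a mean ratio of -0.31, and the call remained (adjusted p = 0.0099).

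Slc17a7 had a log2 Cy5 signal of 8.59 and 8.64 on the oxaliplatin arrays and of 8.42 and 8.81 on the vehicle arrays. Its Cy3 signal was 6.46 and 7.03 on the oxaliplatin arrays and 6.49 and 6.85 on the vehicle arrays, and the ratios were 2.12 and 1.60 against 1.94 and 1.96. The 2 oxaliplatin ratios enclosed both vehicle ratios. Before correction the Cy3 spots measured 59.5 and 53.5 on the oxaliplatin arrays, with a local background of 43.5 and 36, and 59.8 and 68.5 on the vehicle arrays, with a background of 40 and 38.8. In Cy3 the probe was not well above background on either oxaliplatin array and was so on both vehicle arrays, whereas Cy5 was well above background on all 4. The ratios of the oxaliplatin arrays are thus no exact values. The 3.64-fold given above sets the mean Cy5 signal (8.61) against the probe's own mean Cy3 signal (6.75). The lowest Cy3 signal well above background did not enter it, being no higher on either array. It is a mean and no lower limit: oxaliplatin replicate 2 had a log2 ratio of 1.60, against a group mean of 1.86. Without swapped dyes, dye bias in the 3.64-fold difference was not tested. The size of this ratio rested on how the dim channel was corrected: the mean over the 4 arrays was 1.90 ± 0.091 (SE) with an offset of 50, 2.98 without that offset, which damps ratios of dim spots, and 4.43 by the scanner software's log ratio, and it was called in all 3.

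Slc17a8 had log2 Cy5 signals of 7.0 and 6.84 on the oxaliplatin arrays and 7.01 and 6.98 on the vehicle arrays. In Cy3 it measured 6.96 and 6.78 on the oxaliplatin arrays and 6.73 and 6.77 on the vehicle arrays. The ratios were 0.041 and 0.059 against 0.28 and 0.21, with both oxaliplatin ratios below both vehicle ratios. Raw Cy5 spots measured 110.5 to 154 over a background near 60 (56.8 to 64.5), and Cy3 was not well above background on oxaliplatin replicate 2. Its 2 spots on oxaliplatin replicate 1 differed by more than the groups did (-0.16 and 0.25). The mean ratio passed the test with an offset of 0 (0.24, adjusted p = 0.0266) and with the scanner's log ratio (0.24, adjusted p = 0.0309), and was -0.18 with median centring.

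**Figure D1:**
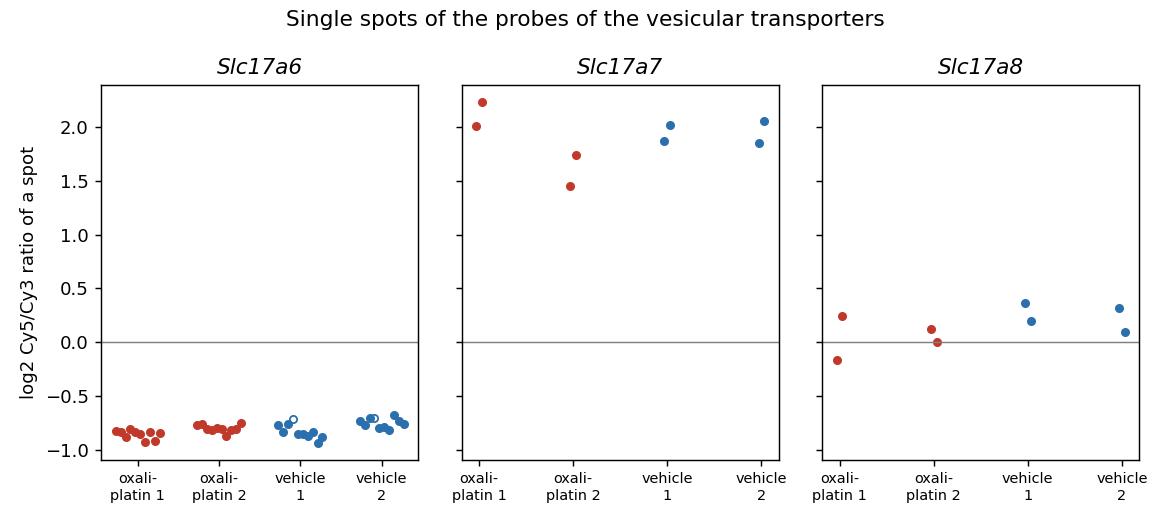
Log2 Cy5/Cy3 ratio (vertical axis) of each single spot of the 3 transporter probes on the 4 arrays, with oxaliplatin in red, vehicle in blue and outlier spots as open circles. All spots of Slc17a6 lie below 0 and all spots of Slc17a7 above 1, on every array, while those of Slc17a8 run from -0.16 to 0.36.

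Grm2, a group II receptor found mainly on axons and their terminals, was 2.06-fold higher in Cy5 than in Cy3 (1.05 ± 0.060, SE, n = 4 arrays, limma adjusted p = 2.74e-05). Its log2 Cy5 signal was 11.73 and 11.56 on the oxaliplatin arrays and 12.02 and 12.07 on the vehicle arrays. The Cy3 signal was 10.63 on both oxaliplatin arrays and 10.98 and 10.95 on the vehicle arrays. Both channels were lower on the oxaliplatin arrays, by 0.39 in Cy5 (adjusted p = 0.183) and 0.33 in Cy3 (adjusted p = 0.262), which did not pass the test. In the ratio the groups overlapped, with 1.1 and 0.95 on the oxaliplatin arrays, against 1.03 and 1.11 on the vehicle arrays. A mean ratio as high as that of Grm2 was reached by 3.31% of all genes.

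Grm3, the other group II receptor, which astrocytes as well as neurons express, had near-equal signals in both channels (0.084 ± 0.070, adjusted p = 0.334). Its ratios were 0.091 and 0.39 on the oxaliplatin arrays and -0.11 and -0.033 on the vehicle arrays, so both oxaliplatin ratios lay higher. Cy5 measured 10.51 and 10.68 against 10.53 and 10.42, with groups that overlapped, and Cy3 10.42 and 10.31 against 10.63 and 10.44, with both oxaliplatin values lower. A second, dimmer probe with 1 spot per array gave the opposite order of group means, with ratios of 0.18 and -0.022 on the oxaliplatin arrays and 0.093 and 0.37 on the vehicle arrays. The probes were annotated to different accessions of the gene.

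**Figure D2:**
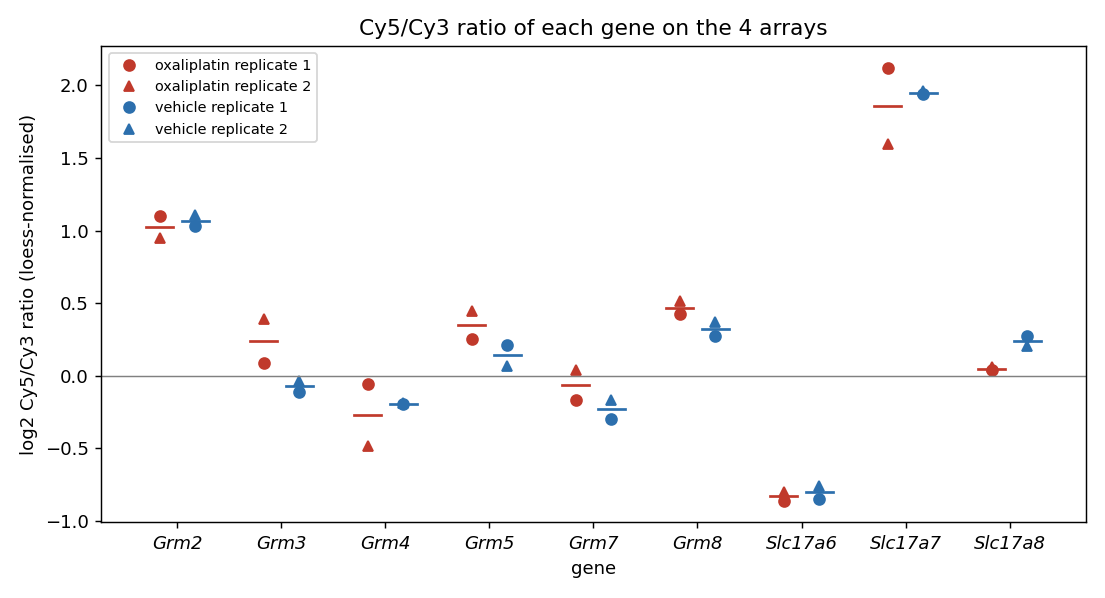
Loess-normalised log2 Cy5/Cy3 ratio (vertical axis) of the 9 genes on each array, with oxaliplatin (red) left of vehicle (blue), circles for replicate 1, triangles for replicate 2 and a line at each group mean of 2 arrays. Slc17a7 and Grm2 lie highest and Slc17a6 lowest in both groups, and the spread between genes is wider than that between the groups.

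Among the group III receptors of the set, which sit mainly on presynaptic terminals, Grm8 was called higher in Cy5 (0.40 ± 0.058, adjusted p = 0.00143, 1.32-fold). Its Cy5 signal was 10.10 and 10.15 on the oxaliplatin arrays and 9.89 and 9.89 on the vehicle arrays. In Cy3 it was 9.69 and 9.66 on the oxaliplatin arrays and 9.59 and 9.50 on the vehicle arrays. The ratios were 0.42 and 0.51 against 0.28 and 0.37. All 3 measures were higher on both oxaliplatin arrays than on both vehicle arrays, by 0.24 in Cy5 (adjusted p = 0.211), 0.13 in Cy3 (adjusted p = 0.642) and 0.14 in the ratio, none of which passed the test.

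Grm7 had ratios of -0.17 and 0.042 on the oxaliplatin arrays and -0.30 and -0.16 on the vehicle arrays, which overlapped, and its mean ratio did not pass the test (-0.15 ± 0.065, adjusted p = 0.0958). It passed when oxaliplatin replicate 2 was left out (-0.20, adjusted p = 0.0424), and also by the scanner's log ratio (-0.25, adjusted p = 0.0364). Cy5 measured 8.86 and 8.79 against 8.71 and 8.89, and Cy3 9.03 and 8.76 against 9.0 and 9.04. Its duplicate spots differed with an SD of 0.18 on both oxaliplatin arrays, which is wider than the gap between the group means.

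Grm4 was slightly lower in Cy5 by its probe of higher mean signal, which had 1 spot per array (-0.23 ± 0.081, adjusted p = 0.0471). The ratios were -0.053 and -0.49 on the oxaliplatin arrays and -0.20 and -0.19 on the vehicle arrays. The oxaliplatin ratios enclosed the vehicle ratios. Cy5 measured 13.45 and 13.46 on the oxaliplatin arrays and 13.82 and 13.88 on the vehicle arrays, and Cy3 13.51 and 13.96 against 14.00 and 14.05, so both channels were lower on the oxaliplatin arrays. The other probe, with 2 spots, had a mean ratio of 0.0037 and higher Cy5 signals on the oxaliplatin arrays (13.63 and 13.68 against 13.56 and 13.56), opposite to the first. Its Cy3 signals were 13.46 and 13.98 on the oxaliplatin arrays and 13.52 and 13.46 on the vehicle arrays, which overlapped. The call was lost with the mean of both probes (-0.11, adjusted p = 0.278) and in 3 other alternatives (adjusted p of 0.0601 to 0.0717). It was also lost without oxaliplatin replicate 2 (-0.12), vehicle replicate 1 (-0.23) or vehicle replicate 2 (-0.23), but not without oxaliplatin replicate 1 (-0.34). The sign of the mean ratio turned with median centring (0.21).

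Grm5, the group I receptor of the set, was 1.19-fold higher in Cy5 (0.24 ± 0.065, adjusted p = 0.0167). Its ratios were 0.25 and 0.45 on the oxaliplatin arrays and 0.21 and 0.068 on the vehicle arrays, so both oxaliplatin ratios lay higher. Cy5 measured 9.93 and 9.92 against 9.98 and 10.05, and Cy3 9.69 and 9.49 against 9.75 and 9.96. Both channels were thus lower on the oxaliplatin arrays, Cy3 by more (0.27 against 0.092). The call of the mean ratio was lost when vehicle replicate 1 was left out (0.21, adjusted p = 0.113), and by the scanner's log ratio (0.17, adjusted p = 0.134).

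**Figure D3:**
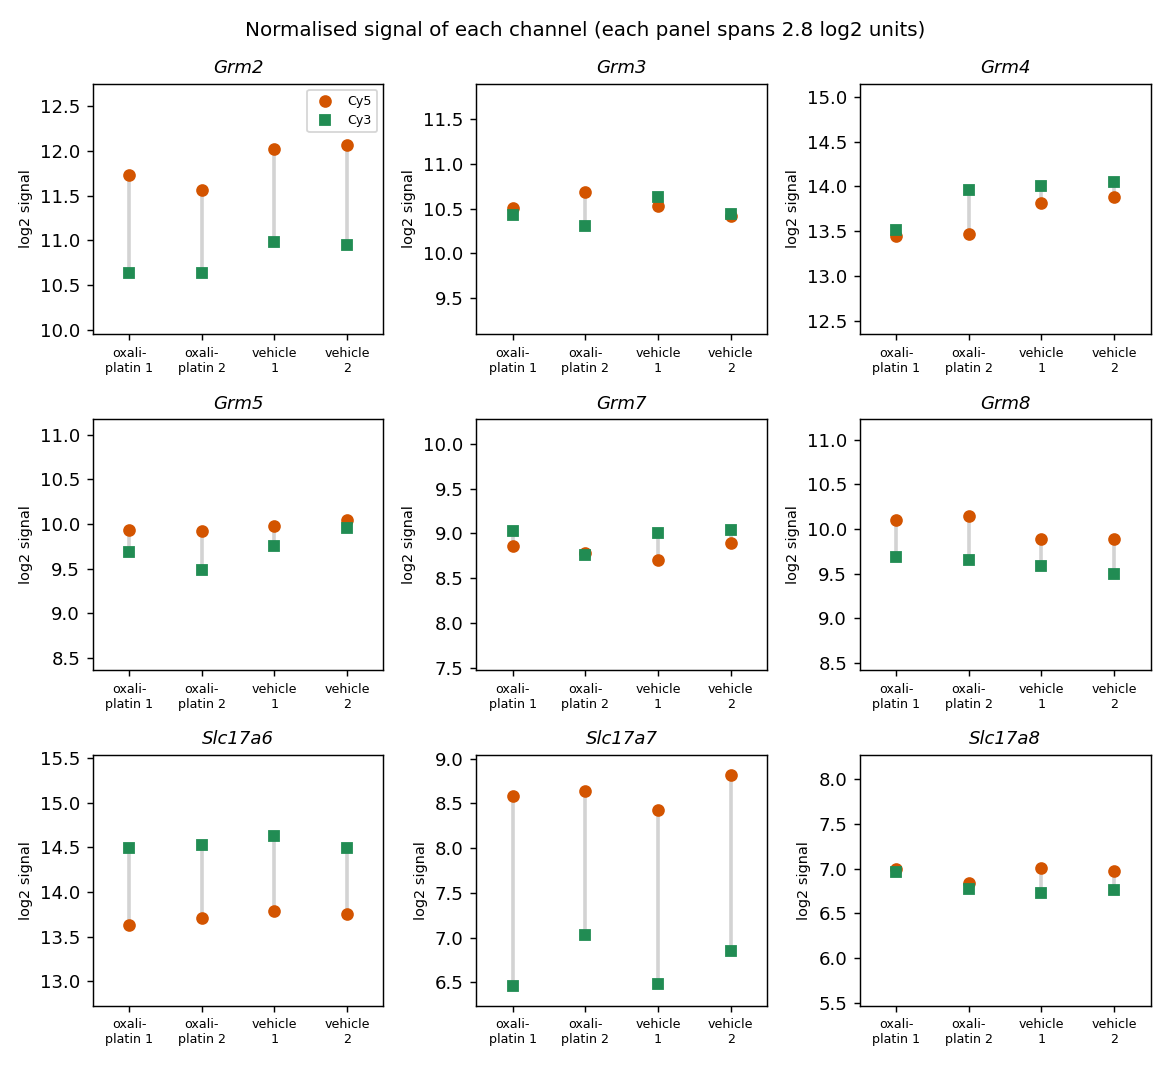
Normalised log2 signal (vertical axis) of Cy5 (orange circles) and Cy3 (green squares) for each gene on the 4 arrays, every panel spanning the same number of log2 units. Cy5 lies above Cy3 on all 4 arrays for Grm2, Grm5, Grm8, Slc17a7 and Slc17a8 and below it for Grm4 and Slc17a6. Grm2, Grm4 and Grm5 have lower values on the oxaliplatin arrays in both channels, without passing the test. Grm4 is shown by its probe with 1 spot per array. Its other probe had higher Cy5 signals on the oxaliplatin arrays and Cy3 signals that overlapped between the groups.

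Between the oxaliplatin and the vehicle arrays, which were also on separate slides, none of the 9 genes passed the test in the ratio. Of all genes, 0% passed. The estimates lay between -0.19 for Slc17a8 and 0.31 for Grm3. For Grm3 the difference was 0.31 ± 0.14 (SE, 2 arrays per group, limma adjusted p = 0.359), with a 95% interval of -0.021 to 0.64. Its size was matched or passed by 18.6% of all genes. With the mean of both Grm3 probes it was 0.078, and by the dimmer probe alone it was -0.16. Astrocyte markers had higher ratios on the oxaliplatin arrays in 8 of 8 genes, against 11684 of all 22821 genes. In 7 of them the groups did not overlap, against 27.0% of all genes in that direction, and 0 were called (median difference 0.42). Myelin markers had a median difference of 0.36, and their part and that of the astrocyte markers in the values of the 9 genes was not tested. Grm5 differed by 0.21 (interval -0.098 to 0.52, adjusted p = 0.481), Grm7 by 0.17 (-0.14 to 0.48, adjusted p = 0.571) and Grm8 by 0.14 (-0.13 to 0.42, adjusted p = 0.588). Grm2 differed by -0.045 (-0.33 to 0.24, adjusted p = 0.894) and Grm4 by -0.078 (-0.46 to 0.31, adjusted p = 0.852).

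Slc17a6, the transporter with the most spots, differed by -0.030 (-0.30 to 0.24, adjusted p = 0.930). Slc17a7 differed by -0.091 (-0.52 to 0.34, adjusted p = 0.847), a value without a settled sign, since its Cy3 signal was not well above background on the oxaliplatin arrays. By the scanner's log ratio it was 1.68 (adjusted p = 0.444), with ratios of 5.89 and 4.65 on the oxaliplatin arrays and 3.87 and 3.31 on the vehicle arrays. Slc17a8 differed by -0.19 (-0.46 to 0.077, adjusted p = 0.463). The intervals leave room for a change in either direction in all 9 genes, so a lack of effect is not shown.

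Groups did not overlap in the ratio for 4 of the 9 genes, higher on the oxaliplatin arrays for Grm3, Grm5 and Grm8 and lower for Slc17a8. Among all genes 49.2% did not overlap, 27.0% higher and 22.2% lower, so the count among the 9 is near that background. In Cy5 alone 5 of the 9 did not overlap, against 60.1% of all genes, and in Cy3 alone 6 of the 9, against 58.3%. The limma test called 0 of 22821 genes in the ratio (0%) at an adjusted p under 0.05, and 3342 (14.6%) had an unadjusted p under 0.05, with 0 of the 9 among them. It also called 0 genes in Cy5 alone (0%), with 4692 at an unadjusted p under 0.05, and 0 in Cy3 alone (0%), with 4755. The median difference was -0.030 over the 9 genes and 0.0055 over all genes. Both oxaliplatin arrays were on 1 slide and both vehicle arrays on the other, so slide and group cannot be told apart. No scan held arrays of both groups, so scan and group cannot be told apart either.

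**Figure D4:**
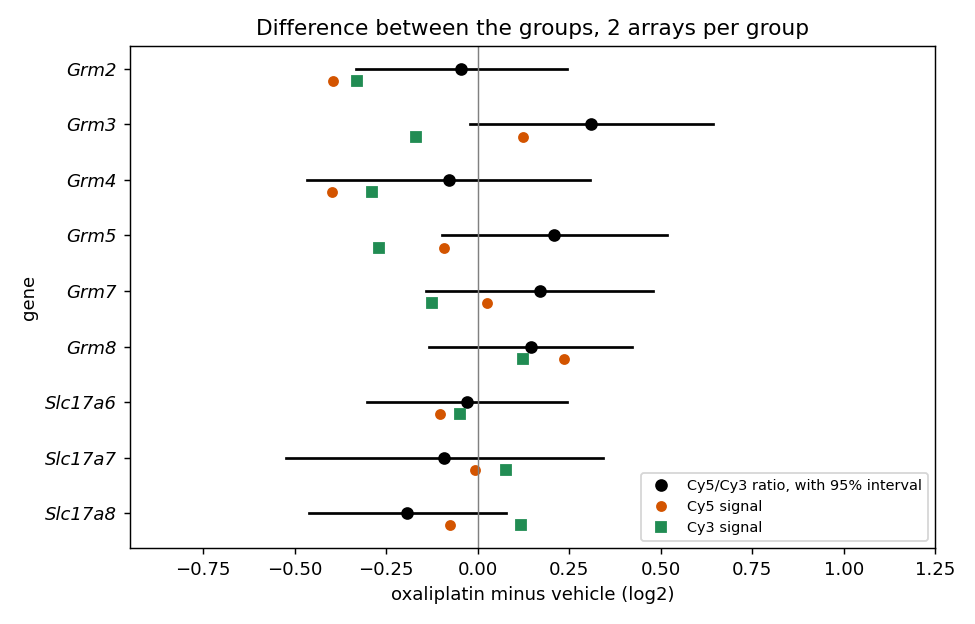
Oxaliplatin minus vehicle (horizontal axis, log2) for each gene, in the Cy5/Cy3 ratio with its 95% interval (black), and in the Cy5 (orange) and Cy3 (green) signals. All 9 intervals include 0, and Grm2 and Grm4 have lower Cy5 and Cy3 signals on the oxaliplatin arrays with near-equal ratios. The Grm4 values are those of its probe with 1 spot per array. Its other probe had higher Cy5 signals on the oxaliplatin arrays and Cy3 signals that overlapped between the groups.

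Grm6, a group III receptor known from retinal bipolar cells, was higher in Cy5 (0.51 ± 0.058, SE, limma adjusted p = 4.49e-04). Its ratios were 0.45 and 0.54 on the oxaliplatin arrays and 0.49 and 0.57 on the vehicle arrays, which overlapped, with a difference of -0.033 (adjusted p = 0.921).

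Genes that act with the receptors were read as lists, chosen by name. Of 19 measured genes of group I signalling and scaffolds, 14 were called higher in Cy5 and 1 lower, with a median ratio of 0.60. Over all genes the median was 0.029, and 29.3% were called higher and 26.3% lower, which is the background for each list. Of 6 measured general neuron markers, 4 were called higher in Cy5 and 1 lower, with a median of 1.28. The part of neurons in the lists was not tested. The calcium release channel Itpr1 was higher (3.21 ± 0.076, adjusted p = 7.53e-07), as were the activity-regulated gene Arc (2.94 ± 0.058, adjusted p = 4.58e-07) and the receptor scaffold Homer1 (1.96 ± 0.058, adjusted p = 1.88e-06). Between the groups Homer1 differed by -0.35 (adjusted p = 0.307), Ncdn by 0.50 (adjusted p = 0.294) and Arc by 0.37 (adjusted p = 0.302). In no list did a gene pass the test between the groups.

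Partners of the group II and III receptors numbered 22 measured, of which 14 were called higher and 6 lower in Cy5, with a median of 0.40. Rgs4, which shortens signalling through Gi and Gq (3.03 ± 0.057, adjusted p = 4.04e-07), the synaptic protein Rimbp2 (1.55 ± 0.063, adjusted p = 6.28e-06) and Rgs8 (0.63 ± 0.059, adjusted p = 2.03e-04) were higher, and the G-protein subunit Gnb2 was lower (-0.76 ± 0.072, adjusted p = 2.13e-04). Between the groups Gng3 differed by 0.48 (adjusted p = 0.294), Gnb2 by 0.45, Adcy3 by 0.41 and the vesicle protein Syn1 by 0.41, with adjusted p of 0.302 to 0.308 for the last 3. The group difference had a median of 0.097 over this list and 0.056 over the group I list.

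Genes of glutamate uptake and synthesis ran the other way. Of 18, 11 were called lower in Cy5 and 3 higher, with a median ratio of -0.30. The transaminases Got1 (-1.05 ± 0.078, adjusted p = 7.74e-05) and Got2 (-0.80 ± 0.066, adjusted p = 1.20e-04) and glutamine synthetase, Glul (-0.71 ± 0.059, adjusted p = 1.23e-04), were lower. The glial glutamate transporter Slc1a3 was higher (1.39 ± 0.062, adjusted p = 9.71e-06). Astrocyte markers moved with this list: 6 of 8 were called lower in Cy5 and 1 higher, with list medians of -0.71 and -0.32 on the oxaliplatin arrays and -0.95 and -1.12 on the vehicle arrays. Their summed Cy5 signal was 210224 to 239133 on the oxaliplatin arrays and 183634 to 194248 on the vehicle arrays, their summed Cy3 signal 295215 to 303501 and 331208 to 338250 in the same order, and all 8 were well above background. Their part in the result was not tested. Between the groups Glul differed by 0.45 (adjusted p = 0.294), Slc38a5 by -0.43 (adjusted p = 0.332), Slc1a5 by 0.37 (adjusted p = 0.336) and Got2 by 0.26 (adjusted p = 0.412).

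Of 19 other vesicular and SLC17 transporter genes, 8 were called lower and 4 higher in Cy5 (median -0.079), 12 in all, which is near the 55.6% called among all genes. The synaptic vesicle protein Sv2b (1.81 ± 0.096, adjusted p = 1.95e-05) and the vesicular zinc transporter Slc30a3 (0.52 ± 0.060, adjusted p = 5.06e-04) were higher, and Sv2a (-0.79 ± 0.086, adjusted p = 3.78e-04) and the proton pump subunit Atp6v1b2 (-0.58 ± 0.056, adjusted p = 2.37e-04) lower. Slc32a1, the vesicular transporter of GABA and glycine, was lower in Cy5 (-0.41 ± 0.090, adjusted p = 0.0076), as were 6 of 8 inhibitory dorsal horn neuron markers. Between the groups Atp6v0c differed by 0.60 (adjusted p = 0.294), Sv2a by 0.47 (adjusted p = 0.312), Atp6v0a1 by 0.39 (adjusted p = 0.337) and Slc32a1 by -0.37 (adjusted p = 0.390).

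**Figure D5:**
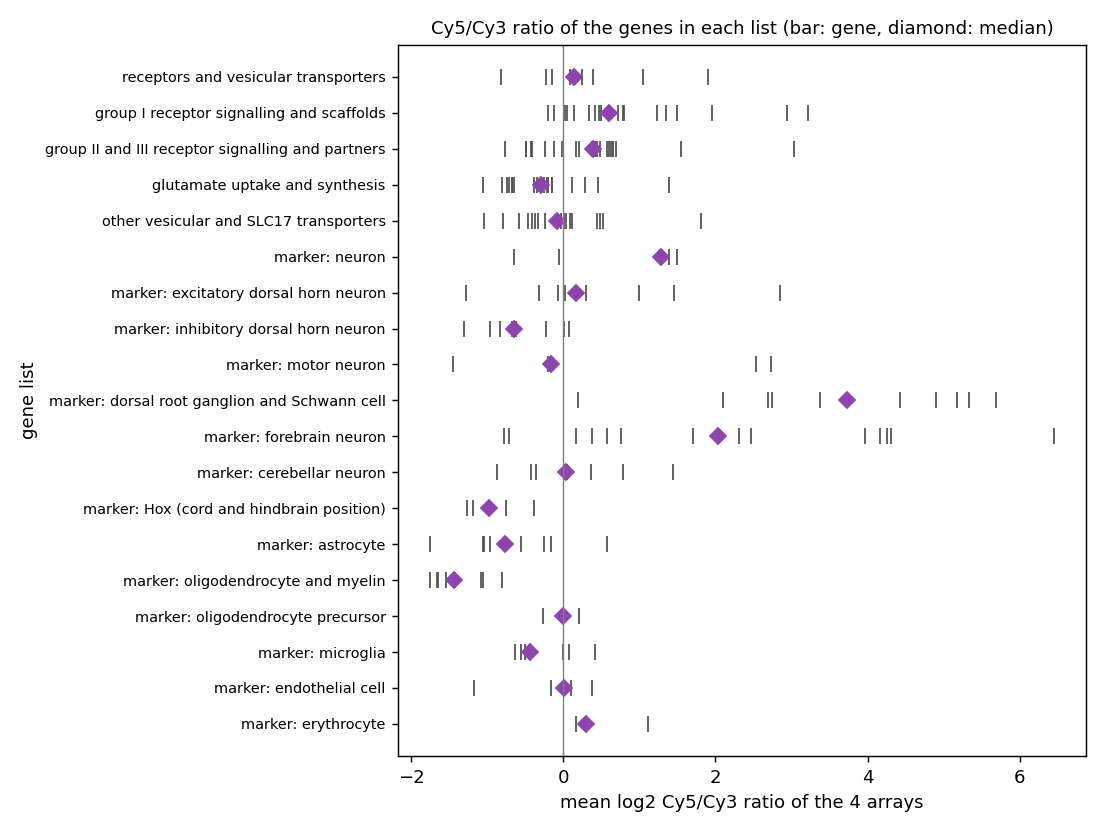
Mean log2 Cy5/Cy3 ratio of the 4 arrays (horizontal axis) for every measured gene (bars) of each list shown (rows), with the list's median as a diamond. The list that holds Grm6 is not drawn. Dorsal root ganglion and Schwann cell markers (median 3.73) and forebrain neuron markers (2.03) lie highest and myelin markers (-1.44) lowest, and the receptors and transporters spread on both sides of 0.

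Across the marker and partner lists, 3 genes were sought whose 4 ratios lay nearest to those of Slc17a6 and of Slc17a8, by Euclidean distance among 181 genes. For Slc17a6 they were the dopamine receptor Drd2 (a distance of 0.25), the interneuron factor Lhx1 (0.31) and the glutamate transporter Slc1a6 (0.34), and for Slc17a8 Slc17a3 (0.19), Gpr17 (0.21) and Gnb1 (0.21), with a Slc17a8 ratio whose Cy3 signal was not well above background on oxaliplatin replicate 2. With 4 arrays this describes similar ratios and no more. Excitatory dorsal horn neuron markers, the cells in which Slc17a6 is known, were mixed: of 8, 4 were called higher in Cy5 and 2 lower, with list medians of 0.26 and 0.23 on the oxaliplatin arrays and 0.11 and 0.091 on the vehicle arrays.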

How the data were processed

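Scanner files and the authors' value table were used, with each sample's group and replicate number from its title and 0 columns unmapped. Per the file headers, the deposited files hold spot and local background intensity per channel (median pixels), intensity processed by the scanner software (background-subtracted, dye-normalised), flags that hold other values than signals, and log10 ratios of Cy5 over Cy3. The version of Agilent Feature Extraction is 10.7.1.1 per the file headers but 8.5.1.1 per the submitters' processing notes. The deposited value table holds log10 ratios that matched the scanner files within 0.0050, so their scale, centring and direction are the scanner's.

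Intensities were corrected by normexp (offset 50) and loess within arrays in limma 3.58.1 (R 4.3.3), and log2 ratios were computed from the deposited intensities, with 4259 control spots and outlier spots left out and spots of a probe averaged. Single channels were normalised by Aquantile, then by quantile. Probes with Cy5 well above background on at least 2 arrays were kept (26002), named by unversioned accession through RefSeq (18758 of 30367 had a symbol), and each gene was read by its brightest probe. lmFit and eBayes gave SEs, intervals and two-sided p-values, with p adjusted by Benjamini-Hochberg over 22821 genes, threshold 0.05. They rest on the variance of each gene (residual df 2) and on that of all genes (prior df 4.741 for the ratio). The fit was tested on simulated data. Named genes were the 9 genes, up to 4 per partner list and test by smallest p, and up to 3 nearest genes per transporter (not given for Slc17a7, whose Cy3 signal was not well above background on 2 arrays). The genes and lists were chosen with earlier results of these data known. The number of arrays limits the precision. Some genes that this rule names are not reported here.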

Additional observations from a re-analysis of the deposited data

How the results depend on the processing

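With 2 arrays per group the precision is low, and for Slc17a7 and Slc17a8 the dim Cy3 signal limits the ratio. None of the 9 genes was called between the groups in the ratio under any of 13 alternatives (smallest adjusted p = 0.0842). Over all genes the count called was 0, and leaving out an array gave 2 to 937. Of these, oxaliplatin replicate 1 left out gave 937 and replicate 2 gave 15, while vehicle replicate 1 left out gave 33 and replicate 2 gave 2. In Cy5 alone these counts ran from 0 to 5666 (5666 with vehicle replicate 1 left out, 725 with replicate 2) and in Cy3 alone from 0 to 1501 (1501 without vehicle replicate 1). The lone array of a group is then assumed to vary like the other group. Median scaling of Cy3 gave 18. Same-numbered arrays deviated with a correlation of -0.22 and share only a number, and with the replicate block 3 genes were called. A crossed replicate block, added after seeing the data, called 537. The slide could not be fitted as a block because each slide held 1 group. No scan held both groups either: the oxaliplatin arrays shared 1 scan and the vehicle arrays were in separate scans. The scan as a random block, added after seeing the data, gave no estimate of its correlation.

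The sign of the group difference in the ratio turned for Slc17a7 with the scanner's log ratio (1.68), an offset of 0 (0.36) and scaled ratios (0.12), for Grm2 with median centring (0.068) and scaled ratios (0.079), and for Slc17a6 with median centring (0.054). Leaving out an array gave -0.35 to 0.17 for Slc17a7, -0.12 to 0.033 for Grm2, -0.30 to 0.14 for Grm4 and -0.074 to 0.015 for Slc17a6. In Cy5, Grm7 was at -0.013 with median scaling, and without an array at -0.065 to 0.12. In that channel Slc17a7 ran from -0.20 to 0.19 and Slc17a8 from -0.16 to 0.0052. By its probe with 1 spot per array, Grm4 was at -0.43 in Cy5 without vehicle replicate 1. Its other probe had higher Cy5 signals on both oxaliplatin arrays than on both vehicle arrays. In Cy3, Slc17a6 was at 0.0083 with median scaling and at -0.11 to 0.018 without an array, Grm7 at -0.26 to 0.011 and Slc17a7 at -0.21 to 0.36. The mean ratio turned for Grm3 with the scanner's log ratio (-0.023), and for Grm4 (0.21) and Slc17a8 (-0.18) with median centring. Grm2, Grm8, Slc17a6 and Slc17a7 kept their direction and call in the mean ratio under all 13 alternatives. The causes were not tested.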
